A study of Mus musculus with 8 samples.

Results

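The type I hair shaft keratins are the acidic keratins that fill the cortex and cuticle of the hair. All 9 genes of the class named for the mouse here, Krt31, Krt32, Krt33a, Krt33b, Krt34, Krt35, Krt36, Krt39 and Krt40, were found by symbol among the 18540 genes of the count table, and all 9 passed the filter on low counts. The RNA came from mouse skin wounds of 2 groups with 4 samples each. The control samples, numbered 1, 2, 3 and 5, belong to the arm injected with PBS at the wound edge. The treated samples, numbered 1, 2, 4 and 5, belong to the arm injected with Z1C2Z, a composite in which ZnO2 and CeO2 nanoparticles sit in the metal organic framework ZIF-8, and their tissue was taken after 15 days of treatment. The sample titles call this arm only shiyan, and its name here rests on the study, which draws Z1C2Z samples with the same 4 numbers. The study wounded both C57BL mice and diabetic db/db mice, and neither the labels nor the methods say which of these, or which age, the sequenced samples were. A pair of wounds was made on each mouse. The study's methods divide the wounds into groups at random, whereas its results divide the diabetic mice. The methods name 3 animals per group at each harvest day, and day 15 is not among those days. It is not stated which samples shared an animal, so the samples may not be independent. The p-values therefore measure the spread between these samples. Each sample was a piece of whole wound skin, in which follicles, epidermis, dermis and muscle are mixed.

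Hair keratins are built mainly in growing follicles. Cells leave the matrix at the base of the follicle, pass through the precortex and harden into cortex and cuticle, switching on hair keratins in a fixed order on the way. Each filament pairs an acidic type I chain with a basic type II chain, and keratin associated proteins crosslink the filaments. Krt35 is among the first type I chains to appear, in the matrix and precortex, whereas Krt31, Krt33a, Krt33b and Krt34 follow in the cortex. Krt32, Krt39 and Krt40 are chains of the cuticle, the scale layer around the cortex. Krt36 is made in the cortex and also in nail and tongue papillae.

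The libraries held between 28856790 and 38974888 counts. Markers of epidermis were present in every sample, with a summed level of 12182 to 18875 CPM (counts scaled to library size with TMM factors). The 9 members together took 0.00253% to 0.0194% of the counts in the control samples and 0.0219% to 0.217% in the Z1C2Z samples.

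In the RefSeq gene order of GRCm38.p6 the 9 genes lie on chromosome 11. Krt39 and Krt40 are neighbours at one end, 43 other genes follow, 23 of them with a keratin associated protein symbol, and the remaining 7 members stand side by side from Krt33a to Krt36. Krt31, Krt33a, Krt33b and Krt34 are so alike that reads can fall on more than one of them. Their coding sequences (GENCODE M21) were 92.0% to 93.6% identical over the 6 pairs, against 64.4% to 78.9% over the other 30 pairs of members. Of all 50-base windows of the transcript, 28.1% of Krt31, 21.9% of Krt33a, 24.2% of Krt33b and 33.1% of Krt34 occurred unchanged in another member. The share was 3.95% for Krt35 and 0.432% for Krt36, and no window of Krt32, Krt39 or Krt40 was shared. How the authors' counting assigned shared reads is not given in the sources used here, so the split among these 4 genes is uncertain. The first 90 coding bases show the likeness. They lie in the first coding exon on the minus strand (GRCm38, first and last position given), and capitals mark bases that differ from Krt33b. Krt33a differed at 1 base, Krt31 at 5 and Krt34 at 10, and the same stretch of the cuticle chain Krt40, compared without gaps, differed at 57.
Krt33b, chr11:100029736-100029825: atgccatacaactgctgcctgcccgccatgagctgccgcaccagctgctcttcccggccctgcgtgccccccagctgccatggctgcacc
Krt33a, chr11:100016058-100016147: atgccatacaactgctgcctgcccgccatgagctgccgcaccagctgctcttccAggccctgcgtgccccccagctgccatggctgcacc
Krt31, chr11:100050393-100050482: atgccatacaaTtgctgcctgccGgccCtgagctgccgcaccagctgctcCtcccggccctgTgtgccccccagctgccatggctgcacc
Krt34, chr11:100041407-100041496: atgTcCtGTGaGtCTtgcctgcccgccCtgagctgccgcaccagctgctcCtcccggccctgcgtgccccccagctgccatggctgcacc

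The 250 bases before the annotated start of the 9 genes were also read. RefSeq promoter windows (GRCm38.p6) matched 7 of the 9, and none was at hand for Krt33a and Krt35. Both strands were searched for TATAAA, a form of the TATA box. They were also searched for 2 forms of the core bound by LEF1/TCF factors, CTTTGA and CTTTGT, whose first 5 letters are shared. TATAAA was found in 5 of the 7 windows and in 12.4% of 32851 promoter windows of the same length. CTTTGA was found in 5 of the 7 and in 13.8% of all, and CTTTGT in 1 of the 7 and in 16.5% of all. Either form was found in 5 of the 7 and in 27.6% of all. The 7 windows are not independent, since Krt31, Krt33b and Krt34 are near copies that lie close together. These shares were therefore not tested, and they say nothing about why the genes moved together. In Krt31, Krt32, Krt33b and Krt34 a CTTTGA began at base -244, -247, -247 and -240 from the start, and Krt34 held another at -133. A TATAAA began at -29 in Krt31, Krt32 and Krt40, at -31 in Krt34 and at -47 in Krt33b, with another at -88 in Krt32. On the opposite strand CTTTGA lay at -18 in Krt39 and CTTTGT at -80 in Krt31, and Krt36 held none of the 3 strings. Other forms of the TATA box were not searched for, and the windows of Krt36 and Krt39 both held the letters TATATAAG. The windows of 2 cortex genes and of the cuticle gene Krt40, which held TATAAA alone, are shown 5′ to 3′ on the minus strand with the matches in capitals. A match is a description of the letters.
Krt31, chr11:100050552-100050801: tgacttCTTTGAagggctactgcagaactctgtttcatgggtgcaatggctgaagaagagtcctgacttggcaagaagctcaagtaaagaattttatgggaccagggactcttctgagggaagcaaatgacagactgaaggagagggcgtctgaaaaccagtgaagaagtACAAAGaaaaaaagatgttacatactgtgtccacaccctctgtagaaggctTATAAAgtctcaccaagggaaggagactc
Krt34, chr11:100041555-100041804: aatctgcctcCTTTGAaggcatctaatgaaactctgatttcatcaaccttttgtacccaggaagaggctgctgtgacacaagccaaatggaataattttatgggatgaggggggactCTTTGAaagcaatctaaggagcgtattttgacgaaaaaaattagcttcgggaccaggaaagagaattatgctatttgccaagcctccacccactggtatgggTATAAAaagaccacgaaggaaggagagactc
Krt40, chr11:99543221-99543470: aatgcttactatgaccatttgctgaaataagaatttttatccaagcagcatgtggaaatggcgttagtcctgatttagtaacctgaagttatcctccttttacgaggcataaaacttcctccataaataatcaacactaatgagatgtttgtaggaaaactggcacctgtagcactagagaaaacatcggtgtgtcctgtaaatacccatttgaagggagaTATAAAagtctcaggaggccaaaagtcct

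Every member of the class was higher in the Z1C2Z group, where 51.1% of all tested genes had a log2 fold change over 0. The quasi-likelihood test of edgeR called all 9 higher, that is, with a log2 fold change over 1 and a Benjamini-Hochberg adjusted p under 0.05 across 15147 genes. Of all genes tested, 2.15% were called higher. None of the 9 was called lower, as 1.25% of all genes were. Without the fold threshold 4.28% of all genes passed upward, and an unadjusted p under 0.05 was found for all 9 members and for 28.0% of all genes. The log2 fold changes of the members ran from 2.47 to 4.83, with a median of 3.97 beside 0.01 over all tested genes, and by size they stood between place 43 and place 165 among all tested genes. In bulk tissue, more cells of a type and more RNA per cell cannot be told apart.

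Krt35, the early chain of matrix and precortex, had 16.0, 33.8, 55.4 and 17.9 CPM in controls 1, 2, 3 and 5, and 138, 265, 212 and 68.3 CPM in Z1C2Z samples 1, 2, 4 and 5. The groups did not overlap, and Z1C2Z-5 stood closest to the control samples. Control wounds averaged 30.8 ± 18.3 CPM and treated wounds 171 ± 85.8 CPM (SD, n = 4 per group). This was the smallest rise of the class and the one with the smallest adjusted p in it, at log2 fold change 2.47 ± 0.50 (SE, edgeR adjusted p = 0.0306).

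The largest log2 fold changes belonged to the cortex chains Krt34, Krt33b, Krt33a and Krt31. Krt34 had 1.24, 5.85, 19.1 and 2.59 CPM in the control samples, in the same order, and 94.1, 350, 361 and 20.7 CPM in the Z1C2Z samples. Its log2 fold change of 4.83 ± 1.09 (SE, edgeR adjusted p = 0.0362) was the largest of the class, although Z1C2Z-5 lay just above control-3. Krt31 had 1.24, 8.27, 25.9 and 2.99 CPM in the control samples and 113, 327, 296 and 27.9 CPM in the Z1C2Z samples. Again the groups were separated only by the narrow gap between control-3 and Z1C2Z-5, and the log2 fold change was 4.31 ± 1.03 (SE, edgeR adjusted p = 0.0407).

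Krt33a was the most abundant member in the treated wounds. It had 3.20, 13.8, 45.9 and 4.79 CPM in the control samples and 175, 604, 570 and 42.7 CPM in the Z1C2Z samples. Here control-3 exceeded Z1C2Z-5, so the groups overlapped, with a log2 fold change of 4.36 ± 1.06 (SE, edgeR adjusted p = 0.0420). Its near copy Krt33b had 1.24, 6.63, 18.3 and 2.84 CPM in the control samples and 73.8, 282, 270 and 18.2 CPM in the Z1C2Z samples. It overlapped by the same 2 samples, and its log2 fold change was 4.46 ± 1.03 (SE, edgeR adjusted p = 0.0378). Krt36, a minor cortex chain, had 0.426, 2.30, 4.43 and 1.30 CPM in the control samples and 14.1, 29.1, 21.7 and 4.60 CPM in the Z1C2Z samples. Its groups did not overlap, and its log2 fold change of 3.02 ± 0.70 (SE, edgeR adjusted p = 0.0376) was the second smallest of the class.

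Among the cuticle chains, Krt32 had 2.20, 8.10, 17.5 and 3.83 CPM in the control samples and 50.3, 142, 110 and 18.4 CPM in the Z1C2Z samples. The groups did not overlap, and the log2 fold change was 3.33 ± 0.76 (SE, edgeR adjusted p = 0.0374). Krt39 had 0.284, 1.33, 5.37 and 0.620 CPM in the control samples and 20.8, 48.1, 47.2 and 5.35 CPM in the Z1C2Z samples. Its 2 groups met at control-3 and Z1C2Z-5, which were nearly level, and the log2 fold change was 3.97 ± 0.92 (SE, edgeR adjusted p = 0.0381). Krt40, the other low cuticle chain, had 0.107, 2.11, 6.22 and 0.479 CPM in the control samples and 21.1, 57.6, 50.8 and 6.10 CPM in the Z1C2Z samples. It had 3 counts in control-1 and 17 in control-5, the lowest of the class in these 2 samples, and it stood closest to the threshold at a log2 fold change of 3.90 ± 1.01 (SE, edgeR adjusted p = 0.0483).

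**Figure D1:**
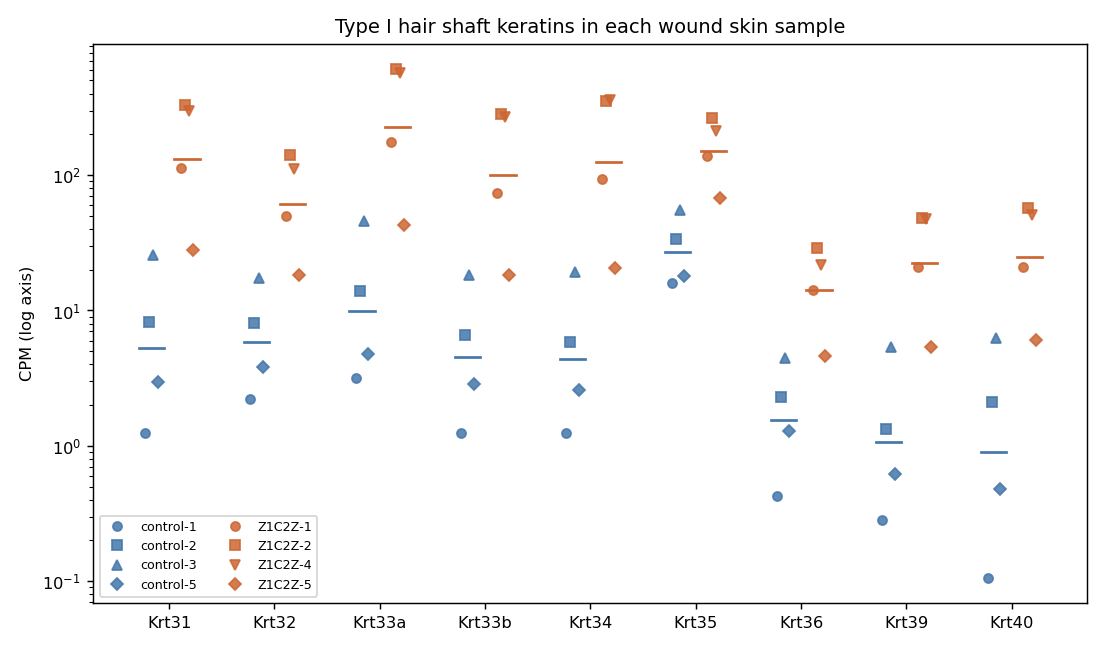
Level of each type I hair shaft keratin in CPM on a log axis (vertical) for each gene (horizontal), with 1 point per sample, blue for the 4 control and orange for the 4 Z1C2Z samples, and a line at the geometric mean of each group. In each gene control-1 is the lowest control sample and control-3 the highest, and Z1C2Z-5 lies close to control-3.

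For 5 of the 9 members every Z1C2Z sample lay above every control sample, which held for 8.45% of all genes tested. These 5, Krt31, Krt32, Krt34, Krt35 and Krt36, had p = 0.0286 in the exact two-sided permutation test over 70 arrangements, the smallest that 4 against 4 samples allow. Krt33a, Krt33b, Krt39 and Krt40 had p = 0.0571 in the same exact test. The calls lay close to the threshold and rested on the full set of samples. With control 2 or 5, or Z1C2Z sample 1, 2 or 4, left out, 0 of the 9 kept an edgeR adjusted p under 0.05, and the adjusted p of the members lay between 0.0655 and 0.131 in those 5 fits. The loss was not particular to the members, since 8 genes of the whole table were called higher without control-2 and 0 in each of the other 4 fits. All 9 members had an unadjusted p under 0.05 in each of the 5, as did 20.3% to 27.6% of all genes. Without control-1 it was 7 of 9, with Krt33a at an edgeR adjusted p of 0.0555 and Krt40 at 0.0561, and without control-3 or without Z1C2Z-5 all 9 stayed. Each member was higher in the Z1C2Z group in all 8 of these fits. The log2 fold changes ran from 2.18 to 5.09 in the 5 fits that lost the calls, and from 2.92 to 5.98, with a median of 5.31, without control-3, the highest control sample. DESeq2 on all samples gave the 9 an adjusted p between 0.000115 and 0.00831.

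**Figure D2:**
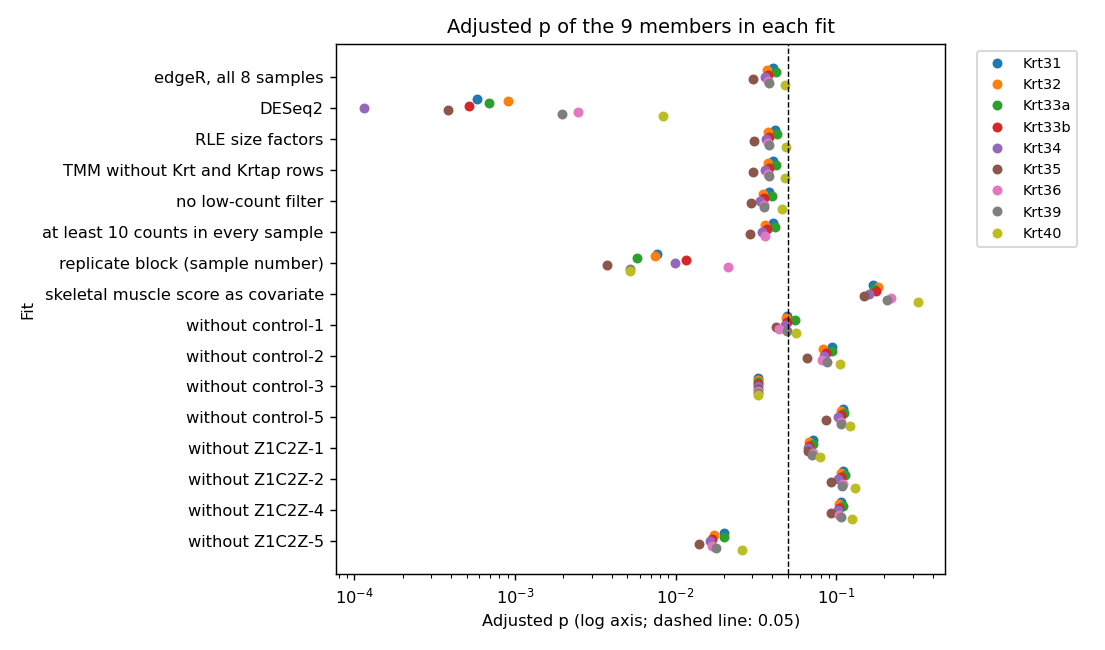
Adjusted p of each of the 9 members (horizontal, log axis, dashed line at 0.05) in each fit (vertical), 1 point per gene and fit. The members move as a block, to the right of 0.05 when control 2 or 5 or Z1C2Z sample 1, 2 or 4 is left out or a skeletal muscle score is added, and to the left without Z1C2Z-5.

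The 9 genes ranked the samples alike. In all 9 the control samples ranked from low to high as control-1, control-5, control-2 and control-3, and in all 9 Z1C2Z-5 was the lowest treated sample and Z1C2Z-1 the next. Z1C2Z-2 was the highest sample for 8 of the genes and Z1C2Z-4 for Krt34. The spread within a group was wide. Across the 4 control samples the ratio of the highest to the lowest CPM was 3.46 for Krt35 and between 7.95 and 20.8 for the other members except Krt40, against a median of 1.39 over 15102 tested genes. For Krt40, with 3 counts in its lowest control sample, the ratio was 58.4 with a 95% counting interval (exact Clopper-Pearson) of 19.7 to 285. Within the Z1C2Z group the ratio lay between 3.88 for Krt35 and 17.4 for Krt34, against a median of 1.35 over 15132 genes.

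Levels of different members were compared per kilobase of coding sequence (CPM per kb), which leaves out untranslated parts that also collect reads. In the control group Krt35 came first at 22.5 ± 13.4 CPM per kb (SD, n = 4), and it was the highest member in 4 of 4 control samples. Krt33a was second in each of them, at 14.0 ± 16.4 CPM per kb (SD, n = 4). Krt31, Krt34, Krt33b and Krt32 followed with means between 5.82 and 7.69 CPM per kb, and Krt40, Krt36 and Krt39 with means between 1.31 and 1.69 CPM per kb. Neighbours in this order overlapped in their spread between samples, and their differences within samples were not tested.

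The order was not the same in the treated wounds. In the Z1C2Z group Krt33a led at 287 ± 232 CPM per kb (SD, n = 4), ahead of Krt34 (176 ± 149), Krt31 (153 ± 115), Krt33b (133 ± 111) and Krt35 (125 ± 62.8). These neighbours also overlapped in their spread, so the place within each sample is the closer measure. Krt33a was the highest member in 3 of 4 Z1C2Z samples, and Krt35 stood at the second place in Z1C2Z-1 and at the fifth in Z1C2Z-2 and Z1C2Z-4. In Z1C2Z-5, as in the control samples, Krt35 was first. Krt32 had a mean of 59.0, Krt40 of 25.7, Krt39 of 21.0 and Krt36 of 12.2 CPM per kb.

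The make-up of the class was then compared free of library scaling, as the share of each member in the summed counts of all 9. Krt35 took 61.7%, 41.1%, 28.0% and 47.9% in controls 1, 2, 3 and 5, and 19.7%, 12.6%, 10.9% and 32.2% in Z1C2Z samples 1, 2, 4 and 5. The groups overlapped only because Z1C2Z-5 lay above control-3. On the log2 scale of Krt35 over the other members the difference was -1.90 (exact two-sided permutation test, p = 0.0571, 0.0857 adjusted over the 9 members). Krt34 took 7.12% ± 1.99 of the control and 14.6% ± 3.88 of the Z1C2Z counts (SD, n = 4 per group) without overlap, a difference of 1.16 (exact permutation p = 0.0286, adjusted 0.0857). Krt31 took between 4.79% and 13.1% of the control counts and between 13.2% and 16.1% of the Z1C2Z counts, also without overlap, a difference of 0.93 (exact permutation p = 0.0286, adjusted 0.0857). Krt33a held 16.3% ± 5.01 and 25.8% ± 4.25 (SD, n = 4 each) and Krt33b 7.43% ± 1.88 and 11.6% ± 2.52 (SD, n = 4 each), and both overlapped. Krt32 held 9.36% ± 0.837 of the control counts and 7.07% ± 1.23 of the Z1C2Z counts (SD, n = 4 each). Krt36, Krt39 and Krt40 held between 0.410% and 3.47% in any sample. No share passed 0.05 once adjusted over the 9, where 4 against 4 samples could not have given a single member less than 0.0286 before adjustment. The shares of a sample also depend on each other, since a lower share of Krt35 leaves more for the rest. The split among the near copies Krt31, Krt33a, Krt33b and Krt34 is uncertain, as reads can fall on more than one of them.

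**Figure D3:**
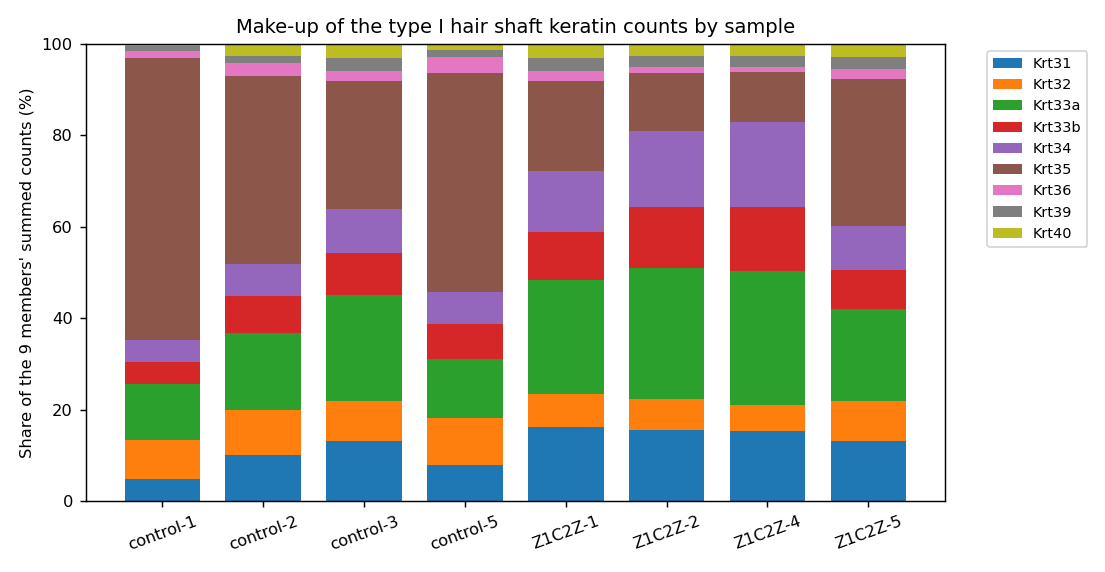
Share of each member in the summed counts of the 9 type I hair shaft keratins in percent (vertical, stacked to 100) in each sample (horizontal). The Krt35 band takes 28.0% to 61.7% of the control bars and 10.9% to 32.2% of the Z1C2Z bars, and the Krt34 band takes 4.79% to 9.65% and 9.77% to 18.6%.

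Type II hair keratins, the partners of these chains, were measured as a list of 7 genes. In it 5 were among the higher genes and none among the lower, beside 2.15% and 1.25% of all tested genes. The median log2 fold change of the list was 3.99. Krt83 rose from 10.4 ± 12.2 to 283 ± 235 CPM (SD, n = 4 per group), at log2 fold change 4.76 ± 1.14 (SE, edgeR adjusted p = 0.0399). Krt87 rose from 13.9 ± 16.5 to 222 ± 157 CPM (SD, n = 4 per group), at log2 fold change 3.99 ± 1.02 (SE, edgeR adjusted p = 0.0469). The other 2 genes are named because they missed the call. Krt82 had a log2 fold change of 3.74 at an adjusted p of 0.0512 and Krt84 of 2.67 at 0.0741, both in edgeR. Krt81 and Krt86, picked after their values were seen, had 4.78 and 4.77 (edgeR adjusted p = 0.0369 and 0.0386). Of the fits with 1 sample left out, 5 called no type I member and at most 8 genes of the whole table higher. In these 5 fits 0 of the 7 type II genes were called in edgeR. All 7 had an unadjusted p under 0.05 in each of these 5, as did 20.3% to 27.6% of all genes. The summed counts of the type I members over those of the type II list gave a ratio of 0.674, 0.806, 0.860 and 0.896 in the control samples and 0.849, 0.952, 0.910 and 0.843 in the Z1C2Z samples. The groups overlapped, and the difference of the log2 ratio was 0.14 (exact two-sided permutation test, p = 0.229). Both classes therefore differed far more between samples than their ratio did.

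Of 10 transcription factors of the hair shaft and its precursors, 6 were among the higher genes, as were 2.15% of all tested genes. These 6 were Hoxc13, Lef1, Foxn1, Msx2, Dlx3 and Foxq1, with log2 fold changes from 1.43 to 2.26. HOXC13 binds hair keratin promoters directly, LEF1 carries Wnt signals in the precortex and FOXN1 is the factor lost in nude mice. Dlx3, a homeobox factor of the follicle, had between 23.9 and 52.7 CPM in the control samples and between 71.7 and 145 CPM in the Z1C2Z samples, a log2 fold change of 1.55 ± 0.27 (SE, edgeR adjusted p = 0.0299). Hoxc13, picked after its values were seen, had 15.2 ± 6.54 CPM in controls and 65.5 ± 26.1 CPM in treated samples (SD, n = 4 per group), a log2 fold change of 2.11 ± 0.38 (SE, edgeR adjusted p = 0.0299). Prdm1, with 53.5 ± 4.04 and 70.7 ± 12.8 CPM (SD, n = 4 per group), did not pass (log2 fold change 0.40, edgeR adjusted p = 0.0921). Runx1, also a factor of blood cells, averaged 108 ± 6.96 CPM in controls and 62.2 ± 16.5 CPM after Z1C2Z (SD, n = 4 per group). Its log2 fold change, -0.79 at an edgeR adjusted p of 0.0356, was past the adjusted threshold and short of the fold threshold, and it was the single member of the list under 0. None of the 6 stayed called in edgeR without control 2 or 5 or without Z1C2Z sample 1, 2 or 4. At most 8 genes of the whole table were called higher in each of these 5 fits. All 10 genes of the list had an unadjusted p under 0.05 in each of these 5, as did 20.3% to 27.6% of all genes.

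The rest of the type I family was set beside the hair shaft chains. Of 4 type I chains of the inner root sheath, the sleeve that guides the growing hair, 3 were among the higher genes, as were 2.15% of all tested genes. These were Krt25, Krt27 and Krt28, with log2 fold changes of 2.45, 2.82 and 2.33 (edgeR adjusted p = 0.0380, 0.0456 and 0.0303). Krt26 had 3.14 (edgeR adjusted p = 0.0807). Of the 10 tested type I keratins of the epidermis and of simple epithelia, edgeR called 0 in either direction, as against 3.4% of all genes, and their log2 fold changes lay between -0.61 and 1.67. At an unadjusted p under 0.05 there were 3 of the 10, Krt15, Krt18 and Krt23, close to the 28.0% of all genes. The 2 most abundant are named for the epidermal layers they mark. Krt14, the basal chain, averaged 2934 ± 932 CPM in controls and 2564 ± 369 CPM after Z1C2Z (SD, n = 4 per group), with an edgeR adjusted p of 0.600. Krt10, its suprabasal counterpart, averaged 3690 ± 1574 and 5378 ± 1207 CPM (SD, n = 4 per group), with an edgeR adjusted p of 0.257. Krt9, Krt12, Krt13 and Krt42 did not pass the filter on low counts.

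**Figure D4:**
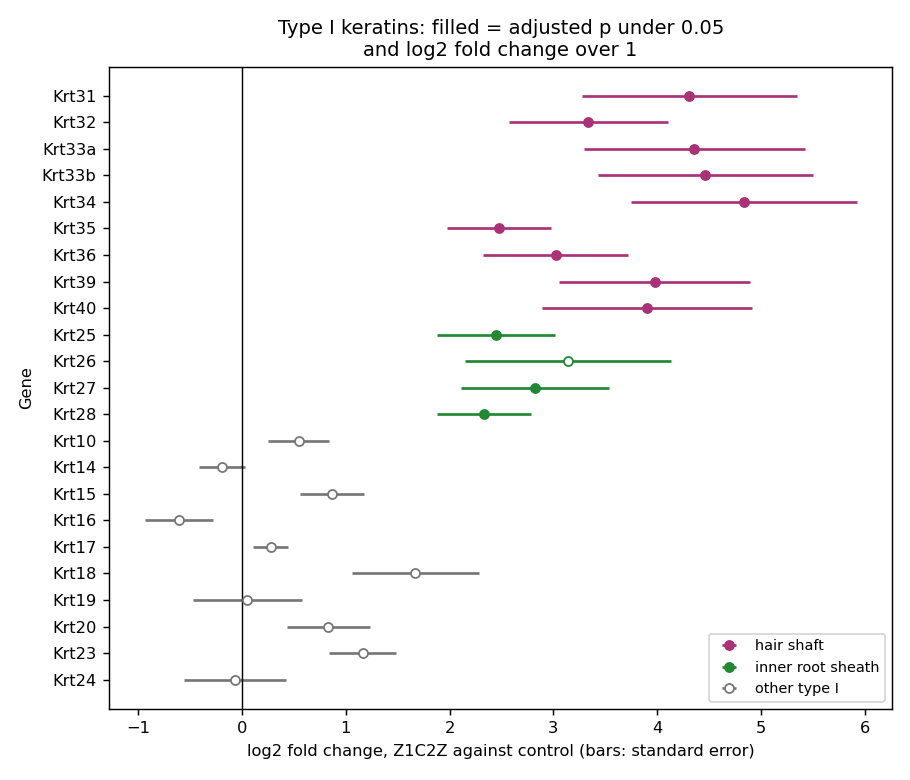
Log2 fold change of Z1C2Z against control (horizontal, bars are standard errors) for each tested type I keratin (vertical), in purple for hair shaft, green for inner root sheath and grey for other chains, with filled points for called genes. The 9 hair shaft chains lie between 2.47 and 4.83, the inner root sheath chains between 2.33 and 3.14 and the others between -0.61 and 1.67.

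In a comparison added after the values were seen, the summed hair shaft members were set over the 4 inner root sheath chains. The ratio was 0.0890, 0.0994, 0.150 and 0.151 in controls 1, 2, 3 and 5, and 0.231, 0.344, 0.353 and 0.131 in Z1C2Z samples 1, 2, 4 and 5. The log2 ratio differed by 1.05 between the groups (exact two-sided permutation test, p = 0.0857). The groups overlapped through Z1C2Z-5 alone, and without it the difference was 1.35 (exact permutation p = 0.0286, the smallest that 4 against 3 samples allow). Removing the sample that made the overlap fixed this p in advance, so nothing is drawn from it. With any other sample left out the difference lay between 0.88 and 1.16, with an exact permutation p of 0.0857 to 0.114.

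The genes whose log2 CPM followed the mean profile of the 9 members most closely over the 8 samples were Krt83 and Krt86, type II hair keratins, and Krtap9-1, Gm45618 and Krtap11-1. Their Pearson correlations lay between 0.998 and 0.999. Outside the symbols that start with Krt, the closest were Gm45618, S100a3, a calcium-binding protein of the hair cuticle, Gm4553, Gja3, a gap junction protein, and Gprc5d, a receptor found in hair-forming cells, at 0.997 to 0.998. These are descriptions over samples that fall into 2 groups and share their libraries.

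Marker lists of other compartments differed between the groups to different degrees and in different directions, and their part in the result was not tested. Of all tested genes, 2.15% were called higher and 1.25% lower. Inner root sheath markers were called higher in 5 of 6 genes and summed to 592 to 3585 CPM in the control samples and 4409 to 14577 CPM in the Z1C2Z samples. Melanocyte markers were higher in all 5 of 5 genes, with a summed level of 117 to 209 CPM in the control samples and 268 to 612 CPM in the Z1C2Z samples. Skeletal muscle markers lay under 0 in log2 fold change in 8 of 8 genes. None passed the fold threshold, but Acta1 at -0.86 and Myh1 at -0.61 had an edgeR adjusted p of 0.0303 and 0.0341. The list summed to 3457 to 6368 CPM in the control samples and to 2888 to 3293 CPM in the Z1C2Z samples. With the mean log2 CPM of this muscle list as a covariate, the members' log2 fold changes lay between 1.71 and 3.43, none passed in edgeR (adjusted p between 0.149 and 0.322), and 7 of the 9 had an unadjusted p under 0.05, as did 23.1% of all genes. In that fit 4 genes of the whole table were called higher. The muscle score ran from 8.52 to 9.47 in the control samples and from 8.35 to 8.48 in the Z1C2Z samples. The groups did not overlap in score, so score and group cannot be told apart in this fit. Within the control group the score was 9.47, 8.95, 8.75 and 8.52 in control-1, control-5, control-2 and control-3. All 9 members ranked these samples the other way round. The Z1C2Z samples did not repeat this, since Z1C2Z-5 had the lowest score (8.35) and also the lowest members. Whether the members follow the score was not tested. Epidermis markers were called in 0 of 6 genes and summed to 12182 to 14972 and 13720 to 18875 CPM in the 2 groups. Sebaceous gland markers were called in 0 of 5 and overlapped. Of 6 dermal papilla markers, which mark the signalling cells at the base of the follicle, 1 was lower, Fgf7, at -1.35 in log2 and an edgeR adjusted p of 0.0337, and the others lay between 0.04 and 0.80 without a call. Macrophage and neutrophil markers were called in 0 of 6, with a log2 fold change under 0 in each, and summed to 1821 to 3168 CPM in the control samples and 1040 to 1985 CPM in the Z1C2Z samples. Fibroblast markers were called in 0 of 4, again with each under 0, and Dcn at -0.45 had an edgeR adjusted p of 0.0320 without overlap between the groups. Every marker of these lists had counts in every sample.

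**Figure D5:**
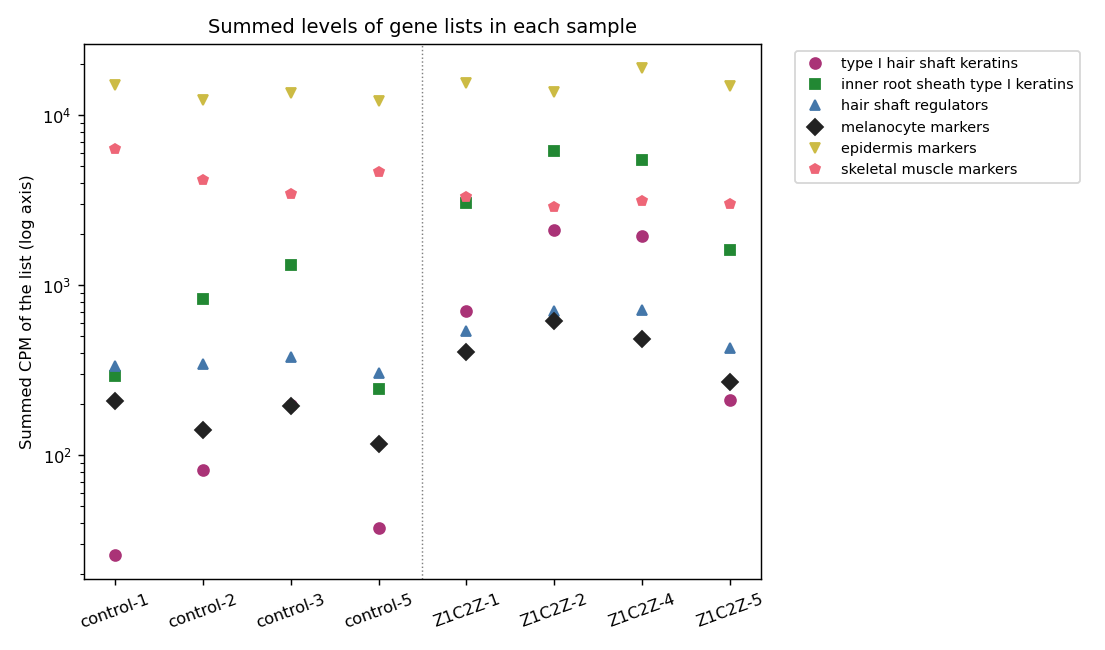
Summed CPM of 6 gene lists (vertical, log axis) in each sample (horizontal), 1 symbol per list and sample, with a dotted line between the groups. In control-3 the hair shaft keratins (198 CPM) lie behind the melanocyte markers (195 CPM). The hair shaft keratins span 26.0 to 2104 CPM over the 8 samples, whereas the epidermis markers span 12182 to 18875 CPM.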

How the data were processed

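RNA-seq was made from wound skin of 4 control and 4 Z1C2Z samples, grouped by the sample titles, whose numbers match those drawn in the study. Read counts, whole and not normalized, were deposited by the authors for 18540 genes. Per the labels, ribosomal RNA was removed, cDNA was random-primed and the second strand took dUTP. The aligner, counting program, genome build and strand setting are not given in the sources used here, so no coordinates were attached to the counts. Totals were 28856790 to 38974888 per sample. The table held 0 unused columns of per-sample values.

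In R 4.3.3, edgeR 4.0.16 kept 15147 genes (filterByExpr), scaled them by TMM and ran the quasi-likelihood test on group alone. A call needed a log2 fold change beyond 1 in size and, after adjustment, a p under 0.05. Log2 CPM used a prior count of 2, and standard errors came from the quasi-likelihood F statistic. Single values were tested by exact two-sided permutation over 70 arrangements. Of these steps, the edgeR fit was tested on simulated counts, with genes drawn independently of each other. DESeq2 1.42.0, RLE factors, TMM factors without Krt and Krtap rows, other filters, a block by sample number, a skeletal muscle score as covariate, ratios with 0.5 counts added or per coding length, and each sample left out in turn were tried. Coding lengths came from GENCODE M21, the longest coding sequence per gene.

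The members, lists and tests were chosen with earlier results of these data known. The naming rule took all members, the 3 highest genes by mean CPM in the type II, regulator and inner root sheath lists, and the 5 genes with the closest profile, with and without Krt and Krtap symbols. Other genes named in the text were picked after their values were seen. From the type II list 1 gene is not reported here, and the per-length ratio of type I to type II chains was not run. The numbers 1, 2 and 5 recur in both groups, but no label says what a number marks, and the samples were not treated as paired. Intervals cover counting error only.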

Additional observations from a re-analysis of the deposited data

How the results depend on the processing

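Across 15 alternatives all 9 members kept a log2 fold change over 0 wherever they were tested. All 9 were higher genes with DESeq2, RLE size factors, TMM factors without Krt and Krtap rows and no low-count filter, and 7 were with at least 10 counts in every sample, where Krt39 and Krt40 were not tested. With a skeletal muscle score as covariate 0 members, 0 type II hair keratins and 0 regulators were higher in edgeR, and 4 higher and 10 lower genes were called in all, with 3501 genes at an unadjusted p under 0.05. When samples were left out 1 at a time (8 fits), members among the higher genes numbered 0 to 9, type II hair keratins 0 to 7, regulators 0 to 6, all higher genes 0 to 463 and all lower genes 0 to 316. DESeq2 called 491 higher and 345 lower genes against 326 and 189 in edgeR. The cause of these differences was not tested.

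With the sample number as a replicate block all 9 members, 7 type II hair keratins and 6 regulators were higher, with an edgeR adjusted p between 0.00373 and 0.0213 for the members, and 271 genes were higher and 184 lower in all. Control-3 and Z1C2Z-4, whose numbers occur once, add nothing to that fit. Deviations from the group mean correlated at -0.101, -0.0623 and 0.323 between samples of one number, so the pairing rested on the number alone. Of 6 samples with a shared number, 2 correlated best with their own number. The difference of the log2 ratio of members to inner root sheath chains lay between 0.88 and 1.35 with 1 sample left out, and that of type I to type II chains between 0.06 and 0.19. Each member's difference in share kept its sign under the 10 alternatives, and none passed when adjusted over the members. Depth limits Krt36, Krt39 and Krt40, which had 12, 8 and 3 counts in control-1.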
